A study of Mus musculus and Rattus norvegicus with 30 samples.

Results

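The dorsal root ganglia (DRG) of 2 mouse strains were compared after the same nerve injury, across all genes that could be tested. The members were the 9 libraries of injured mice, 5 from B10.D2 and 4 from BALB/c, of 30 samples in the series. Each was a library of ribosome-depleted RNA from the L3 and L4 ganglia of a single adult mouse that had spared nerve injury (SNI), an operation that cuts the common peroneal and sural branches of the sciatic nerve and leaves the tibial branch whole, some weeks before the tissue was taken. The mice were inbred, and neither a transgene nor a drug was part of the comparison. The B10.D2 SNI libraries came from 3 females (69, 76 and 78) and 2 males (89 and 90), and the BALB/c SNI libraries from 2 females (64 and 65) and 2 males (49 and 70). A further 11 libraries from sham-operated mice, 5 B10.D2 and 6 BALB/c, gave the strain difference without nerve injury, and shared no library with the injured mice. The study catalogued LncRNAs of the DRG and their response to nerve injury, and used these strains because BALB/c mice become more sensitive to touch than B10.D2 mice after this injury. L3 and L4 ganglia hold cut and spared neurons side by side, and a whole ganglion mixes neurons, glia, vessels and immune cells. Fewer cells of a type and less RNA per cell therefore cannot be told apart in any value below.

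After a peripheral nerve is cut, sensory neurons switch on a programme of transcription factors, growth-associated proteins and neuropeptides. Galanin, encoded by Gal, is a classical member of it. Satellite glia wrap the cell bodies and buffer potassium, and resident macrophages proliferate around injured neurons. Inbred strains also differ at very many sites in the genome whether or not a nerve is cut, so a strain difference seen after injury can be one that was there before. B10.D2 carries the C57BL/10 background with the H2 region of DBA/2, and BALB/c is albino and has the same H2-d haplotype. The reads of both strains were aligned to the mouse reference genome, which is that of C57BL/6J, a near relative of the C57BL/10 background. What the closer match of B10.D2 reads did to the counts was not tested.

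The 9 SNI libraries held 29989963 to 40916387 counts. Their first principal component held 58.21% of the variance of log2 CPM (counts scaled to a common total by library size and TMM factor) and separated the strains, with scores of 42.25 to 48.72 in B10.D2 and -71.1 to -51.43 in BALB/c. In marker genes, 3 libraries stood apart in their group. BALB/c library 49 had a summed level of 521 CPM over 12 neutrophil genes and of 608 CPM over 10 muscle genes. B10.D2 library 76 had the lowest summed level of injury-induced genes (1431.8 CPM). B10.D2 library 69 had the highest of red blood cell genes among the B10.D2 SNI libraries (1035.0 CPM, with 835 to 1071.8 CPM in BALB/c SNI). The sensory neuron markers Avil and Prph, which define the tissue, averaged 847 and 1222.4 CPM in B10.D2 and 843 and 1169.7 CPM in BALB/c. The female-specific transcript Xist was at 435 to 575 CPM in the female and 1.57 to 6.55 CPM in the male SNI libraries, as labelled.

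Strain set the level of a large share of the transcriptome in injured ganglia. Of 24685 features tested, 5147 were differentially expressed between B10.D2 SNI and BALB/c SNI (20.9%, edgeR quasi-likelihood test, Benjamini-Hochberg adjusted P under 0.05, with sex as covariate). In B10.D2, 2681 were higher (10.9% of those tested) and 2466 were lower (9.99%). Most of these differences were modest, with a median absolute log2 difference of 0.56, and 1503 features (6.09%) differed at least 2-fold, 760 higher and 743 lower. At the far end, 357 differed at least 8-fold and 85 at least 64-fold. The CPM of the 2 strains did not overlap for 4508 features (18.3%), of which 3853 were also called.

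The same comparison in sham ganglia called 5322 features (21.6%), with 11.5% higher and 10% lower in B10.D2. Of the features called after SNI, 71.9% were also called in sham, and 69.6% of those called in sham were also called after SNI. Among the 3703 called in both, 3702 had the same sign. A further 1444 were called after SNI and not in sham, and 1355 of those had the same sign in sham. The log2 differences after SNI and in sham had a Pearson correlation of 0.91 over all 24685 features, which is a description across genes that share the same 2 genomes. The difference between the strain effects after SNI and in sham was tested directly as an interaction, and 6 features passed (0.0243%; 1073 had an unadjusted P under 0.05). DESeq2 called 11.

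**Figure D1:**
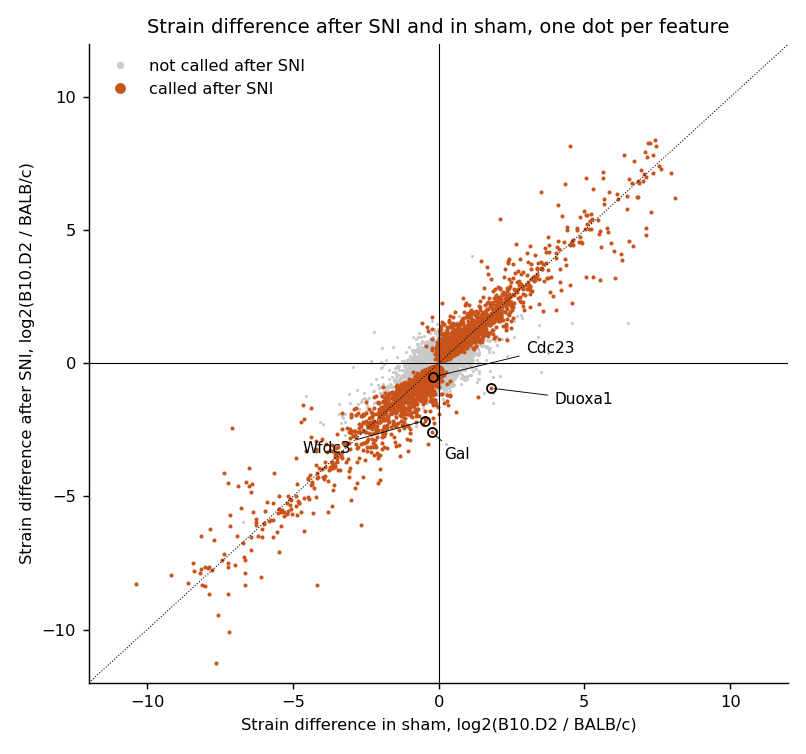
Each dot is a feature, with the log2 ratio of B10.D2 to BALB/c in sham on the x axis and after SNI on the y axis. Features called after SNI (orange) lie along the dotted line of equal difference, and the circled Gal, Duoxa1, Wfdc3 and Cdc23 were called after SNI and in the interaction.

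Both sexes carried the difference. Each sex was tested as a contrast in a fit of all 20 mouse libraries, grouped by strain, condition and sex. The spread was therefore estimated from both sexes and from sham as well. The male contrast (males alone below) called 2908 of 25711 features (11.3%, 2 B10.D2 and 2 BALB/c SNI libraries). The female contrast (females alone below) called 2542 (9.89%, 3 and 2 libraries). Of the 1810 called in both sexes, 1808 had the same sign. Of the 5147 features called over both sexes, 5146 pointed the same way in males and in females. They were called from these same libraries, so that agreement was largely set in advance. A test of whether the strain difference depended on sex called no feature (0%; edgeR, smallest adjusted P of 1, 910 features at an unadjusted P under 0.05). Without BALB/c library 49, 4217 of 25138 features were called (16.8%).

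Gal differed between strains after injury, with no called difference in sham. It was measured at 26.7, 15.4, 28, 27.8 and 21.8 CPM in the B10.D2 SNI libraries and at 165, 186, 128 and 99.0 CPM in the BALB/c SNI libraries. Every BALB/c library lay above every B10.D2 library, and the means differed 6.05-fold (log2 -2.59 ± 0.25 SE, adjusted P = 9.0e-08). In sham the B10.D2 libraries held 4.56 to 8.18 CPM and the BALB/c libraries 4.42 to 12.6 CPM, which overlapped, with a log2 difference of -0.22 (adjusted P = 0.63). The interaction was -2.37 ± 0.36 SE on the log2 scale (adjusted P = 0.014), and it passed the threshold without BALB/c SNI library 49 as well (adjusted P = 0.047). Every SNI library of either strain held more Gal RNA than every sham library.

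The other features called both after SNI and in the interaction were Duoxa1, Wfdc3 and Cdc23. Duoxa1, which encodes a maturation factor of the dual oxidase DUOX1, was at 1.23, 1.10, 1.21, 1.02 and 1.04 CPM in B10.D2 SNI and at 2.37, 1.76, 2.07 and 2.35 CPM in BALB/c SNI (log2 -0.93 ± 0.15, adjusted P = 9.1e-05). In sham its order was turned, with 0.692 to 0.978 CPM in B10.D2 and 0.171 to 0.314 CPM in BALB/c, and the interaction was -2.72 (adjusted P = 4.1e-06). Duoxa1 was the single feature called with opposite signs in the 2 comparisons. Wfdc3, which encodes a small protein with a WAP domain, was at 0.638 to 1.39 CPM in B10.D2 SNI and 4.48 to 5.32 CPM in BALB/c SNI (log2 -2.15 ± 0.18, adjusted P = 1.0e-08), against a sham difference of -0.48 (adjusted P = 0.088). Cdc23, which encodes a subunit of the anaphase-promoting complex, was at 48.4 to 56.9 CPM in B10.D2 SNI and 71.5 to 77.9 CPM in BALB/c SNI (log2 -0.51 ± 0.04, adjusted P = 4.7e-09). Its interaction of -0.33 passed in 2 of the 20 fits that left out a library, and that of Wfdc3 in 13, whereas those of Gal and Duoxa1 passed in all 20. Without BALB/c SNI library 49 the interactions of Cdc23 (adjusted P = 0.086) and Wfdc3 (adjusted P = 0.062) did not pass.

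The wider list of injury-induced genes leaned the same way as Gal. Of 25 members tested, 7 were lower in B10.D2 and 1 was higher, against backgrounds of 9.99% and 10.9% over all features, and 24 of the 25 log2 differences were negative, with a median of -0.52. In sham the same list had 1 member lower and 2 higher, and a median of -0.03. In the direct test of the difference between SNI and sham, 1 of the 25 members, Gal, was called. The summed level of the list was 1431.8 to 1975.9 CPM in B10.D2 SNI and 2038.7 to 2246.1 CPM in BALB/c SNI, which did not overlap. That sum includes Gal, at 15.4 to 28 CPM in B10.D2 SNI and 99.0 to 186 CPM in BALB/c SNI. The lack of overlap depends on Gal, since the gap between the summed ranges is smaller than its level in any BALB/c SNI library. In sham the sum was 1091.4 to 1231.3 CPM in B10.D2 and 921 to 1199.7 CPM in BALB/c.

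Among its members, Crh, which encodes corticotropin-releasing hormone, was at 0.558, 0.306, 0.606, 0.562 and 0.532 CPM in B10.D2 SNI and at 2.72, 1.88, 1.58 and 2.10 CPM in BALB/c SNI (log2 -1.96 ± 0.26, adjusted P = 9.3e-06). Stmn4, of the stathmin family of tubulin-binding proteins, was at 7.66 to 14.4 CPM and 20.2 to 24.4 CPM (log2 -0.91 ± 0.14, adjusted P = 6.4e-05). Tnfrsf12a, the TWEAK receptor, was at 6.23 to 9.88 CPM and 12.1 to 14.3 CPM (log2 -0.54 ± 0.12, adjusted P = 0.0021). Sox11 (log2 -0.54, adjusted P = 0.012) and Flrt3 (log2 -0.34, adjusted P = 0.036) were also lower. The transcription factor Atf3, the standard label of an injured sensory neuron, averaged 81.8 CPM (SD 26.9, n = 5) in B10.D2 and 124 CPM (SD 11.8, n = 4) in BALB/c, a log2 difference of -0.59 ± 0.29 that did not pass (adjusted P = 0.16). The growth cone protein Gap43 had a log2 difference of -0.17 (adjusted P = 0.11) and neuropeptide Y, encoded by Npy, one of -0.54 (adjusted P = 0.29). Gfra1, a GDNF receptor, was the member that was higher in B10.D2 (log2 0.36 ± 0.08, adjusted P = 0.0022), and it was higher in sham as well (log2 0.32). What part differences in the number of cut neurons had in these values was not tested.

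Among genes of cell death, some were also lower in B10.D2, and among immediate early genes calls went both ways. In a list of cell death and p53 genes, 7 of 21 were lower in B10.D2 and none was higher (median log2 -0.18). That is 33.3% called, against 20.9% over all features. The list was led by Chac1, a glutathione-degrading enzyme of the stress response, at 2.81 to 3.84 CPM against 6.48 to 8.92 CPM (log2 -1.11 ± 0.14, adjusted P = 4.1e-06). Chac1 was lower in B10.D2 sham as well (log2 -0.84). Gadd45a, a stress-inducible gene that is also in the injury-induced list, was lower after SNI (log2 -0.43, adjusted P = 0.009) and had a sham difference of 0.08. The list summed to 336 to 374 CPM in B10.D2 SNI and 404 to 407 CPM in BALB/c SNI. In sham it summed to 322 to 342 CPM in B10.D2 and 348 to 360 CPM in BALB/c, which did not overlap either. Of 16 immediate early genes, 3 were lower, 1 was higher and 12 were not called (25% called, near the 20.9% over all features). Arc (log2 -0.80), Nr4a2 (log2 -0.53) and Dusp1 (log2 -0.31) were lower, and Fosb (log2 1.3, adjusted P = 0.026) was higher, but Arc, Dusp1 and Fosb each passed in 4 of the 9 fits that left out an SNI library. Fosb did not pass without BALB/c library 49 (adjusted P = 0.063).

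Neuropeptides and their receptors differed gene by gene. Of 17 neuropeptide genes tested, 3 were lower in B10.D2 (Gal, Crh and Pdyn) and none was higher (17.6%, against 20.9% over all features). Pdyn, which encodes prodynorphin, was at 0.0803 to 0.194 CPM in B10.D2 and 0.162 to 0.985 CPM in BALB/c, with an overlap of the groups (log2 -2.08 ± 0.34, adjusted P = 9.0e-05). The nociceptor peptides Calca (log2 -0.07, adjusted P = 0.54) and Tac1 (log2 0.40, adjusted P = 0.091) did not pass. Of 23 receptor genes, 6 were higher and 3 lower (39.1%, against 20.9% over all features). Of these 9, 7 were also called in sham with the same sign.

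The galanin receptors parted. Galr2, a receptor for galanin, was at 0.195, 0.128, 0.194, 0.0803 and 0.280 CPM in B10.D2 SNI and at 0.843, 1.25, 0.933 and 1.11 CPM in BALB/c SNI. The groups did not overlap, and the difference of -2.54 ± 0.26 on the log2 scale (adjusted P = 2.0e-07) was matched in sham (-3.00). Galr1, another galanin receptor, was higher in B10.D2, at 8.07 to 11.8 CPM against 5.19 to 6.59 CPM (log2 0.75 ± 0.17, adjusted P = 0.0022). BALB/c injured ganglia thus held more Gal and Galr2 RNA and less Galr1 RNA.

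Oprm1, which encodes the mu opioid receptor, was at 48.9, 54.2, 50.6, 53.5 and 53.4 CPM in B10.D2 SNI and at 32.0, 33.8, 29.1 and 33.0 CPM in BALB/c SNI (1.63-fold, log2 0.71 ± 0.08, adjusted P = 5.3e-07), with the same difference in sham (log2 0.70). The somatostatin receptor gene Sstr2 was 2.39-fold higher in B10.D2 (log2 1.25 ± 0.20, adjusted P = 6.6e-05), and Vipr2, a receptor for vasoactive intestinal peptide, was lower (log2 -0.80, adjusted P = 0.011). The serotonin-gated channel gene Htr3a was at 98.8 to 150 CPM in B10.D2 and 41.3 to 62.0 CPM in BALB/c (log2 1.26 ± 0.13, adjusted P = 3.0e-07).

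Markers of sensory neuron types were mostly alike. Of 37 tested, 6 were higher and 2 lower (21.6%, against 20.9% over all features), and their summed level was 14051.7 to 17054.1 CPM in B10.D2 and 13907.6 to 15937.2 CPM in BALB/c. The largest differences marked particular types. Slc17a8, the vesicular glutamate transporter 3 gene of low-threshold mechanoreceptors, was at 14.3, 18.4, 14.4, 14.3 and 14.5 CPM in B10.D2 SNI and 3.47, 3.66, 3.42 and 3.63 CPM in BALB/c SNI, a 4.29-fold difference (log2 2.09 ± 0.09, adjusted P = 1.6e-13). Th, tyrosine hydroxylase, which marks C-fibre low-threshold mechanoreceptors, averaged 82.5 CPM (SD 13.9, n = 5) against 41.3 CPM (SD 6.86, n = 4), with no overlap (log2 0.99 ± 0.15, adjusted P = 4.8e-05). Mrgprd, a receptor of non-peptidergic nociceptors, was lower in B10.D2, at 134 to 165 CPM against 210 to 240 CPM (log2 -0.57 ± 0.07, adjusted P = 1.8e-06). All 3 differed in sham by nearly the same amount (log2 2.01, 1.0 and -0.69). The proprioceptor gene Pvalb rested on BALB/c library 49, where it was at 97.7 CPM against 32.0 to 34.4 CPM in the other BALB/c and 21.7 to 24.5 CPM in the B10.D2 libraries. Its log2 difference of -1.0 (adjusted P = 0.016) was -0.54 without that library (adjusted P = 0.14).

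Ion channel genes had called members in both directions. Of 14 sodium channel genes, 5 were higher in B10.D2 and 1 was lower (42.9%, against 20.9% over all features). Without BALB/c library 49, 2 were higher. Scn2b, an auxiliary subunit, was at 64.6 to 79.8 CPM against 37.2 to 46.0 CPM (log2 0.83 ± 0.09, adjusted P = 3.0e-07). Scn9a, which encodes the nociceptor channel Nav1.7, was 1.18-fold higher (log2 0.24 ± 0.07, adjusted P = 0.024) and passed in 6 of the 9 leave-one-out fits. Scn10a had a log2 difference of 0.00 (adjusted P = 0.99). Of 19 calcium channel genes, 1 was higher and 2 were lower (15.8%, against 20.9% over all features). Cacna2d2, which encodes an alpha2delta subunit, the protein family that gabapentin binds, was at 24.7 to 29.2 CPM in B10.D2 and 51.5 to 63.9 CPM in BALB/c (2.10-fold, log2 -1.08 ± 0.10, adjusted P = 5.1e-08), while the injury-induced Cacna2d1 had a log2 difference of -0.01 (adjusted P = 0.98).

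Of 56 potassium channel genes, 10 were higher and 6 lower (28.6%, against 20.9% over all features). Of these 16, 12 were called with the same sign in sham. The largest differences were in opposite directions in a pair of inward rectifier subunits that assemble with each other. Kcnj10 (Kir4.1), the main potassium channel of satellite glia, was at 27.7, 25.3, 32.4, 23.6 and 30.6 CPM in B10.D2 SNI and at 61.8, 84.4, 62.6 and 73.3 CPM in BALB/c SNI (log2 -1.35 ± 0.13, adjusted P = 5.5e-08). Its partner Kcnj16 (Kir5.1) was at 6.78, 6.36, 6.42, 8.40 and 5.8 CPM in B10.D2 SNI and at 1.65, 3.28, 1.81 and 1.93 CPM in BALB/c SNI (log2 1.63 ± 0.18, adjusted P = 6.7e-07). Neither gene overlapped between strains, and both differed in sham (log2 -1.22 and 2.21). Kcnd3 (Kv4.3), an A-type channel, was 1.57-fold higher in B10.D2 (log2 0.66 ± 0.06, adjusted P = 8.3e-08), and Kcnk18 (TRESK), a leak channel, was lower (log2 -0.58, adjusted P = 2.4e-05). Of 28 sensory transduction channels, 4 were higher and 2 lower (21.4%, near the 20.9% over all features). Piezo1, a mechanically gated channel, was at 11.7 to 18.6 CPM against 22.4 to 30.7 CPM (log2 -0.81 ± 0.11, adjusted P = 1.3e-05), and Piezo2, the channel of touch receptors, was slightly higher in B10.D2 (log2 0.22 ± 0.06, adjusted P = 0.015).

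**Figure D2:**
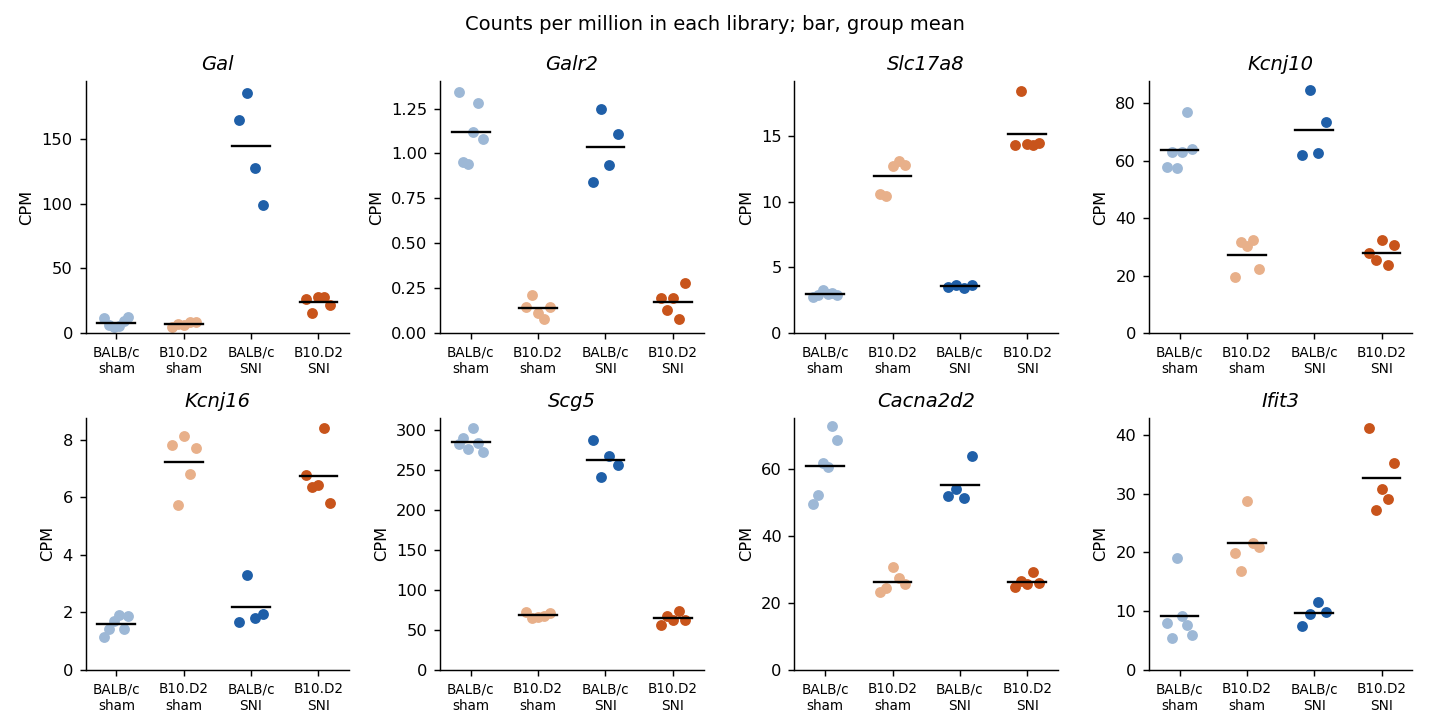
CPM of 8 genes (y axes, from 0) in each library of the 4 groups, with a bar at the group mean. Gal differs between strains after SNI and overlaps in sham, whereas Galr2, Slc17a8, Kcnj10, Kcnj16, Scg5 and Cacna2d2 are separated by strain with and without injury.

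Most listed genes of the interferon response were higher in injured B10.D2 ganglia. Interferons act through STAT and IRF transcription factors to switch on antiviral genes, GTPases and antigen presentation. Of 43 interferon-stimulated genes tested, 29 were higher in B10.D2 and none was lower, against 10.9% and 9.99% over all features, with a median log2 difference of 0.71. In sham 19 were higher and none lower, with a median of 0.40, and no member was called in the interaction. The summed level was 803 to 1154.0 CPM in B10.D2 SNI and 623 to 707 CPM in BALB/c SNI, which did not overlap. Leaving out any SNI library left 22 to 30 members higher, and 26 were higher without BALB/c library 49.

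Ifit3, an RNA-binding antiviral effector, was at 41.2, 27.2, 30.9, 29.1 and 35.3 CPM in B10.D2 SNI and at 7.52, 9.50, 11.6 and 9.84 CPM in BALB/c SNI (3.41-fold, log2 1.74 ± 0.23, adjusted P = 8.3e-06). Ifit1, of the same family, was at 24.5 to 34.0 CPM against 9.73 to 13.3 CPM (log2 1.40 ± 0.33, adjusted P = 0.0039), with a sham difference of 0.43 (adjusted P = 0.35). In sham, BALB/c library 56 held 46.7 CPM of Ifit1, against 7.27 to 21.2 CPM in the other BALB/c and 16.5 to 30.2 CPM in the B10.D2 libraries. The interaction was not called. Gbp6, a guanylate-binding protein, was at 4.28 to 10.7 CPM against 0.584 to 1.71 CPM (log2 2.49 ± 0.27, adjusted P = 6.1e-07), and the immunity-related GTPase gene Iigp1 at 13.2 to 39.0 CPM against 6.32 to 12.4 CPM (log2 1.66 ± 0.30, adjusted P = 2.6e-04). Bst2 (tetherin), which holds budding virus at the cell surface, averaged 14.8 CPM (SD 4.33, n = 5) in B10.D2 and 5.77 CPM (SD 0.601, n = 4) in BALB/c, a log2 difference of 1.35 (adjusted P = 9.1e-05). The sensors Ddx58 (log2 0.38, adjusted P = 3.7e-04) and Ifih1 (log2 0.44, adjusted P = 0.0032) differed less. Isg15 (log2 0.28, adjusted P = 0.37) and Rsad2 (adjusted P = 0.99) did not pass. Gbp2b, a guanylate-binding protein gene outside the list, went the other way. It was at 0.267 to 1.04 CPM in B10.D2 SNI and 14.5 to 22.8 CPM in BALB/c SNI (log2 -4.97 ± 0.23, adjusted P = 6.8e-13).

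The letters GAAANNGAAA, the core of the element that the interferon-activated STAT and IRF complex binds, were searched on both strands in the 250 bases upstream of each RefSeq gene start (GRCm38.p6). They were present in 18 of the 29 list members that had a promoter sequence (62.1%) and in 3.46% of all 27025 genes with one. Among the 21 members that were higher in B10.D2 and had a promoter, 14 held them. Outside the list, 415 tested genes held the letters, and 14.9% of these were higher in B10.D2, against 10.5% of tested genes without them. Isg15 and Rsad2, which did not pass, held them too. A stretch of 120 bases is shown for 3 members that held matches and were higher in B10.D2, with the matched letters, in either orientation, in capitals. The Ifit3 stretch lies at chr19:34583334-34583453 on the plus strand, that of Ifit1 at chr19:34640739-34640858 on the plus strand, and that of Bst2 at chr8:71537536-71537655 on the minus strand.
Ifit3: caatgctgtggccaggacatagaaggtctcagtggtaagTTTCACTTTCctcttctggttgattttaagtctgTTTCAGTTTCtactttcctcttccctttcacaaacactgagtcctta
Ifit1: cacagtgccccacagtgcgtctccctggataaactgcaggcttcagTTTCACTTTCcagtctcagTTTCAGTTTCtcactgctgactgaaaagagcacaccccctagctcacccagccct
Bst2: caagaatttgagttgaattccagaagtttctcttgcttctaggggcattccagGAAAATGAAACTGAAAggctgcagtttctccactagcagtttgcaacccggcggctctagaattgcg
A match is a description of the reference sequence. The B10.D2 and BALB/c promoters themselves were not read.

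Antigen presentation genes moved with the interferon list. Of 21 MHC class I pathway genes, 13 were higher in B10.D2 and none was lower (61.9%, median log2 0.55). Of 10 MHC class II genes, 8 were higher and none was lower (80%, median log2 0.72), against 20.9% called over all features. In sham 11 class I and 9 class II genes were higher and none was lower, with medians of 0.43 and 0.65. B2m, the light chain of class I molecules, was at 251, 168, 162, 157 and 163 CPM in B10.D2 SNI and at 112, 92.8, 135 and 91.5 CPM in BALB/c SNI (log2 0.71 ± 0.12, adjusted P = 1.9e-04). Nlrc5, the activator of class I transcription, was 2.13-fold higher (log2 1.08, adjusted P = 0.001), with B10.D2 library 89 (10.9 CPM) below BALB/c library 65 (11.7 CPM). H2-Aa, a class II chain, was at 64.6 to 112 CPM against 32.2 to 71.7 CPM (log2 0.82, adjusted P = 0.0025), with an overlap. H2 genes are near-identical copies of each other, so the share of reads each received is uncertain. Without BALB/c library 64, 7 class I genes were higher. In females alone 1 class I gene and no class II gene was called by edgeR (5 class II genes had an unadjusted P under 0.05), and in males alone 7 and 6.

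Some macrophage and complement genes were also higher, and most members of both lists were not called. Of 24 macrophage markers, 8 were higher and none was lower (33.3%, against 20.9% over all features, median log2 0.27). However, 3 were higher without BALB/c library 49 and 2 without B10.D2 library 69. In sham 11 were higher and none was lower, with a median of 0.42. C1qb, a chain of the complement component C1q, was at 35.1, 21.1, 24.2, 18.6 and 28.5 CPM in B10.D2 SNI and at 9.37, 12.8, 16.2 and 10.5 CPM in BALB/c SNI (log2 1.05 ± 0.19, adjusted P = 2.6e-04), whereas the other C1q chains C1qa (log2 0.31, adjusted P = 0.38) and C1qc (log2 0.55, adjusted P = 0.068) did not pass. The macrophage surface markers Adgre1 (log2 0.60, adjusted P = 0.016) and Cd68 (log2 -0.04, adjusted P = 0.92) gave different results. The marker list summed to 358 to 635 CPM in B10.D2 SNI and 352 to 526 CPM in BALB/c SNI, which overlapped, and its part in the interferon and MHC values was not tested. Of 27 complement genes, 10 were higher and 1 lower (40.7%, against 20.9% over all features), and 6 were higher without BALB/c library 64. In sham 9 were higher and 1 lower. Hc, which encodes component C5, was at 1.99 to 2.78 CPM against 0.519 to 1.08 CPM (log2 1.42 ± 0.17, adjusted P = 2.3e-06). Of 30 chemokine and cytokine genes, 2 were higher and 1 was lower (10%, below the 20.9% over all features), with 1 higher without BALB/c library 64 and 0 lower without library 49. Ccl27a was at 8.09 to 11.3 CPM against 0.727 to 1.04 CPM (log2 3.52 ± 0.16, adjusted P = 5.9e-13). Ccl27a lies in a duplicated region, so its reads may be shared with near-identical copies.

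Neutrophil genes went the other way, and their size rested in part on a single library. All 12 neutrophil markers were lower in B10.D2 (median log2 -2.39), against 9.99% of all features, and 7 were lower without BALB/c library 49. In sham 5 were lower, with a median of -1.41. The summed level was 28.4 to 53.6 CPM in B10.D2 SNI, and 90.3 to 178 CPM in BALB/c libraries 64, 65 and 70 against 521 CPM in library 49. Ngp, a granule protein, was at 2.65, 2.22, 5.09, 2.60 and 4.23 CPM in B10.D2 SNI and at 59, 9.08, 18 and 10.2 CPM in BALB/c SNI (log2 -2.65 ± 0.59, adjusted P = 0.0022, and -1.92 in the fit that left out the library with most effect). S100a9 had a log2 difference of -2.52 (adjusted P = 0.0019). Males alone gave 8 called markers, and females alone gave none by edgeR (7 at an unadjusted P under 0.05). Slc4a1, a membrane protein of red blood cells and their precursors, was also lower, at 2.52 to 6.62 CPM in B10.D2 SNI and at 86.8, 12.6, 26.9 and 10.4 CPM in BALB/c SNI (log2 -2.94 ± 0.66, adjusted P = 0.0024). The haemoglobin genes did not pass (adjusted P of 0.14 to 0.29). Of 24 lymphocyte genes, 3 were higher and 3 lower (25%, near the 20.9% over all features). In sham 12 were higher and none was lower. The T-cell receptor gene Trac was among those higher after SNI (log2 1.82, adjusted P = 0.016). The B-cell genes Cd79a (log2 -1.44) and Cd79b (log2 -1.19) were among those lower.

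**Figure D3:**
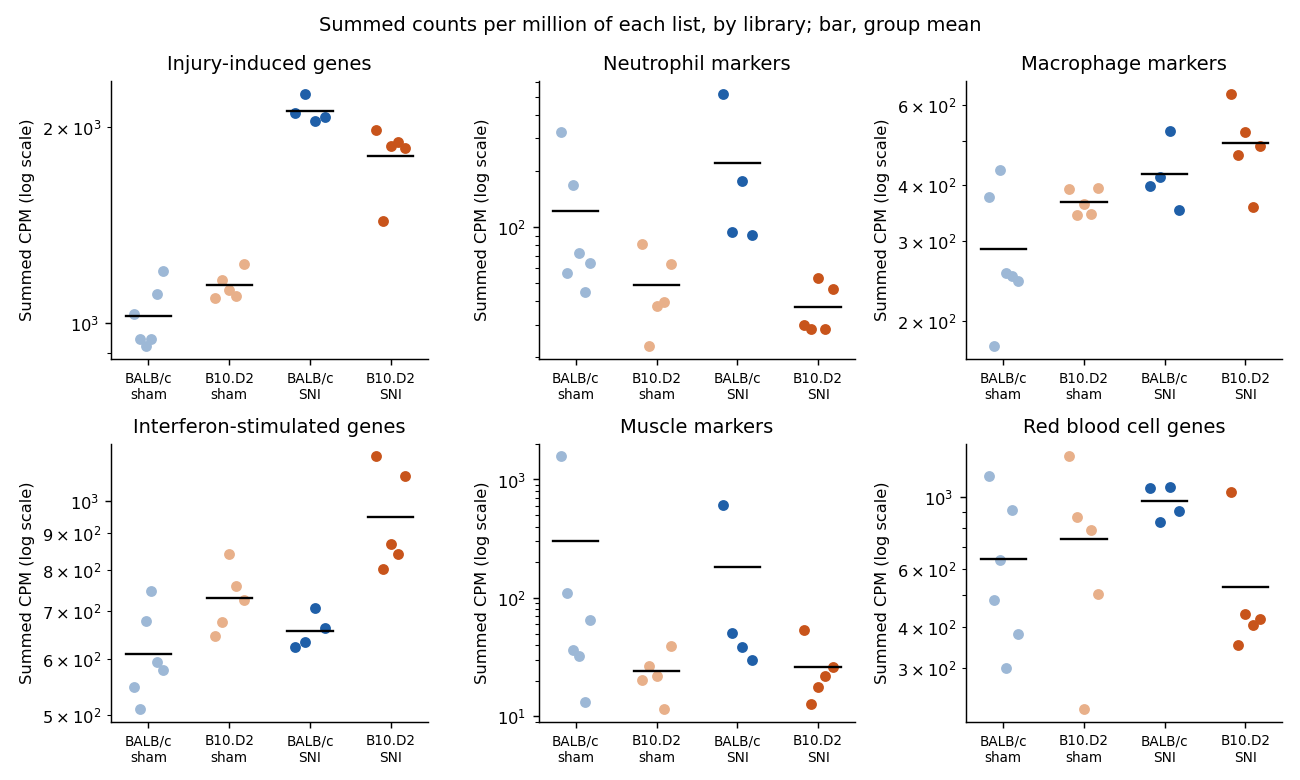
Summed CPM of 6 gene lists in each library (log scale), with a bar at the group mean. The summed injury-induced genes do not overlap between strains after SNI, which depends on the member Gal, and overlap in sham (1 of 25 members was called in the interaction). Interferon-stimulated genes are highest in B10.D2 SNI, and BALB/c SNI library 49 is the highest point of its group for neutrophil and muscle markers.

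Some vascular and some glial markers were lower in B10.D2. Of 15 satellite glia markers, 5 were lower and 1 was higher (40%, against 20.9% over all features). Without BALB/c library 65, 3 were lower, and without library 49 none was higher. The list summed to 3490.8 to 3789.0 CPM in B10.D2 SNI and 3565.6 to 4243.3 CPM in BALB/c SNI, which overlapped. Beside Kcnj10, Ednrb, the endothelin B receptor, was at 112 to 126 CPM against 159 to 185 CPM (log2 -0.53 ± 0.07, adjusted P = 3.1e-06), and Gja1 (connexin 43) was lower with an overlap of the groups (log2 -0.46, adjusted P = 0.0051). Fabp7, a fatty acid-binding protein of glia, had a log2 difference of -0.11 and did not pass (adjusted P = 0.87). Of 21 Schwann cell and myelin genes, 4 were lower and 2 higher (28.6%, against 20.9% over all features). Without BALB/c library 70, 1 was lower, and without library 49 none was higher. Cnp, an enzyme of myelinating glia, was lower (log2 -0.40), and the major myelin gene Mbp (adjusted P = 0.35) did not pass. Of 17 endothelial and mural genes, 9 were lower and none was higher (52.9%, against 20.9% over all features). Without BALB/c library 49, 7 were lower, and without library 65, 6 were. Males alone gave 8 lower and females alone 1, and in sham 9 were lower. The list summed to 619 to 836 CPM in B10.D2 SNI and 754 to 912 CPM in BALB/c SNI, which overlapped. Kdr, the VEGF receptor 2, was at 19.5 to 23.4 CPM against 26.9 to 31.2 CPM (log2 -0.45 ± 0.07, adjusted P = 3.5e-05), and Myh11, the smooth muscle myosin, at 17.7 to 34.8 CPM against 37.8 to 44.4 CPM (log2 -0.78 ± 0.21, adjusted P = 0.0092). Of 19 fibroblast and matrix genes, 5 were higher and 4 lower (47.4%, against 20.9% over all features). Without BALB/c library 49, however, 3 were higher and 6 lower. Postn, a matrix protein, was 1.82-fold lower in B10.D2 (log2 -0.87 ± 0.13, adjusted P = 2.8e-05). Tyrp1, an enzyme of pigment synthesis, was at 8.29 to 18.2 CPM in B10.D2 and 50.5 to 75.3 CPM in the albino BALB/c (log2 -2.27 ± 0.23, adjusted P = 1.4e-07), and of the other 4 pigment genes tested none passed.

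**Figure D4:**
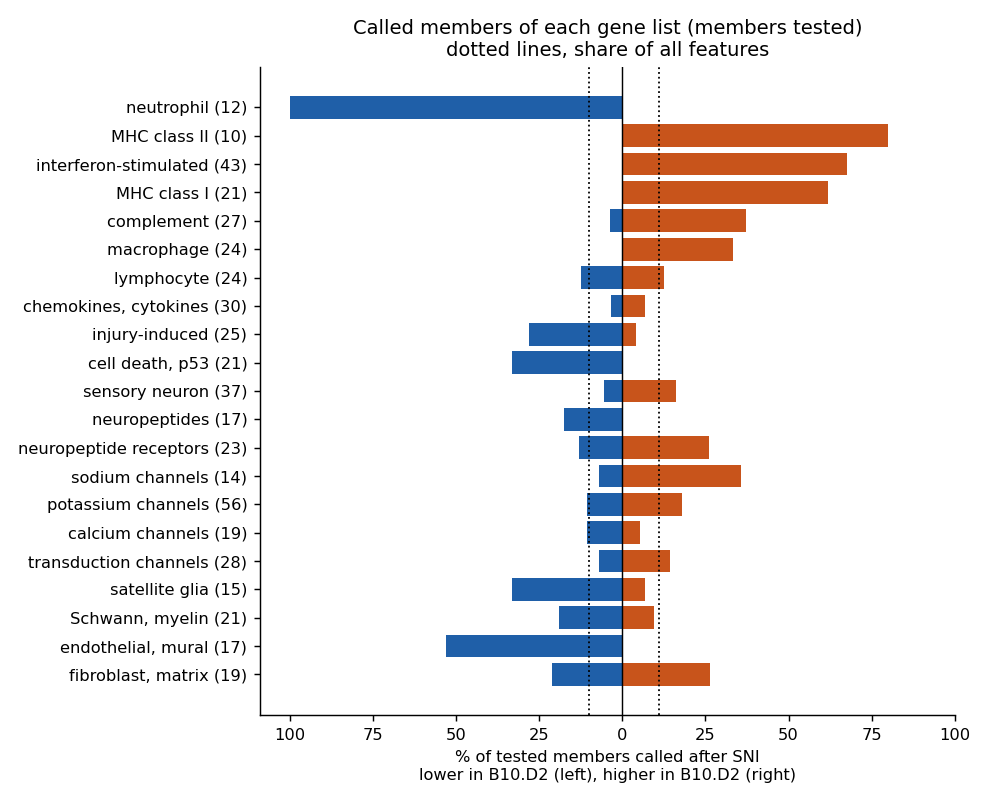
For each gene list, the bars give the share of tested members called after SNI, lower in B10.D2 to the left (blue) and higher to the right (orange), and the dotted lines give the shares over all features (9.99% and 10.9%). Neutrophil and vascular genes extend to the left, and interferon-stimulated and MHC genes to the right.

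Several abundant genes of neurons and of general cell function differed at least 2-fold. Scg5, which encodes the secretory granule chaperone 7B2, was at 56.5, 67.4, 62.3, 73.3 and 62.7 CPM in B10.D2 SNI and at 288, 241, 267 and 256 CPM in BALB/c SNI (4.08-fold, log2 -2.02 ± 0.06, adjusted P = 3.0e-16). Baiap2l1, which bends membranes at actin-rich protrusions, was at 16.1 to 18.5 CPM against 83.3 to 95.9 CPM (5.25-fold), Tagln2, an actin-binding protein, at a mean of 119 CPM (SD 12.7) against 328 CPM (SD 5.13, 2.76-fold), and Rtf2, a replication fork protein, at 88.4 to 107 CPM against 189 to 205 CPM (2.07-fold). Higher in B10.D2 were Capns1, the calpain small subunit, at a mean of 292 CPM (SD 22.2) against 130 CPM (SD 13.0, 2.25-fold), and Psmc4, a proteasome ATPase, at 103 to 121 CPM against 50.8 to 59.4 CPM (2.0-fold). Rpl26, a ribosomal protein gene with many processed copies, was at 116 to 129 CPM against 16 to 19.4 CPM (6.98-fold), and how reads were divided between its copies is uncertain. All 7 differed in sham in the same direction. Hspa8, the constitutive heat shock protein, differed less than 2-fold but at high level, at 2245.6 to 2467.0 CPM against 1349.8 to 1455.6 CPM (log2 0.76 ± 0.05, adjusted P = 4.8e-11).

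The imprinted neighbours H19 and Igf2 on chromosome 7 were both higher in B10.D2. Igf2, a fetal growth factor, was at 114, 118, 90, 60.1 and 103 CPM in B10.D2 SNI and at 14.8, 45.6, 55.7 and 35.3 CPM in BALB/c SNI (log2 1.35 ± 0.27, adjusted P = 9.4e-04). H19, a noncoding transcript expressed from the other parental allele, was at 203, 155, 144, 69 and 140 CPM and at 9.89, 60.6, 81.9 and 30.5 CPM (log2 1.68 ± 0.35, adjusted P = 0.0014). The groups overlapped for H19 and not for Igf2, and BALB/c library 49 was the lowest for both. Mrpl23 and Igf2os, the other 2 features tested there, did not pass (adjusted P of 0.31 and 0.76).

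The largest differences of protein-coding genes were close to presence against near absence. Higher in BALB/c were Fcgbp, a mucin-like protein, at 25.2 to 31.3 CPM against 0.0535 to 0.252 CPM (201-fold, log2 -7.64 ± 0.21, adjusted P = 1.0e-16), Fam151a at 6.95 to 8.85 CPM against 0 to 0.0558 CPM (367-fold), and the water channel gene Aqp2 at 1.98 to 3.57 CPM against 0.0255 to 0.279 CPM (25.4-fold). Serpina1b had 1 count over the B10.D2 libraries and a ratio of 402 (95% interval 71.6 to 15933.0, counting error only). Higher in B10.D2 were Cldn34c1, of the claudin family, with a ratio of 186 (interval 63.3 to 903), the chloride channel gene Best1 at 2.53 to 3.72 CPM against 0 to 0.0649 CPM, the glycine receptor subunit gene Glra4 at 2.37 to 3.08 CPM against 0 to 0.0973 CPM, and Olfr1033, an olfactory receptor gene, at 4.07 to 9.96 CPM against 0 to 0.104 CPM. These features were called in sham in the same direction. For Fam151a, BALB/c sham held 0.125 to 1.01 CPM, and the log2 difference was -4.18 in sham and -8.34 after SNI. The latter rests on 4 B10.D2 counts, and the interaction was not called. Tpm3-rs7, Eno1b and AK157302, which were 80.4-fold, 69.5-fold and 36.5-fold higher in BALB/c, resemble retrocopies or family members of other genes, so their reads are uncertain. Lrtm1 was called after SNI (0.459 to 1.65 CPM in B10.D2 against 0 to 0.0502 CPM) and not in sham (log2 2.10, adjusted P = 0.13).

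Tandem families of immune genes held strong differences in both directions side by side. The clusters were chosen after their values were seen, and their near-identical copies make the assignment of reads uncertain. In the Trim cluster of chromosome 7, which encodes antiviral restriction factors, 7 of 12 features were higher in B10.D2 and 1 was lower. Trim12a was at 15.3, 11.1, 12.9, 11.1 and 15.3 CPM in B10.D2 SNI and at 0.259, 0.100, 0.0778 and 0.0284 CPM in BALB/c SNI (113-fold, log2 6.84 ± 0.26, adjusted P = 1.4e-14), and Trim5 was 49.4-fold higher. Trim34a was higher in B10.D2 (log2 1.5), whereas its copy Trim34b was higher in BALB/c (log2 -4.58), and Trim12c had a log2 difference of -0.13 (adjusted P = 0.32). In the Ifi200 cluster of chromosome 1, which encodes sensors of DNA, 9 of 15 features were higher and 2 lower. Ifi213 was at 3.18 to 6.64 CPM in B10.D2 against 0.0324 to 0.150 CPM, and Ifi202b at 4.99 to 7.85 CPM in BALB/c against 0 to 0.112 CPM in B10.D2. In the Serpina cluster of chromosome 12, which encodes protease inhibitors, 4 of 12 were higher and 5 lower. Serpina3g was at 70 CPM on average in B10.D2 and 32.5 CPM in BALB/c (log2 1.11 ± 0.08), and Serpina3h at 0.949 to 1.35 CPM against 8.12 to 10.5 CPM (log2 -3.01 ± 0.16).

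Assembled LncRNAs were called more often than protein-coding genes, and annotated LncRNAs less often. Of 3763 LncRNAs that the study assembled from these and related libraries, 937 were called (24.9%), as were 551 of 3501 annotated LncRNAs (15.7%), 3401 of 15701 protein-coding genes (21.7%) and 204 of 1027 pseudogenes (19.9%). At least 2-fold differences were found in 12.2% of assembled LncRNAs and 4.01% of protein-coding genes. Intergenic assembled LncRNAs had the highest share, with 304 of 1005 called (30.2%) and a median absolute log2 difference of 1.57 among those called, against 17.7% of 657 antisense to an exon and 24.8% of 2062 within or across a gene. The study assembled its LncRNAs from libraries of both strains among others, so a transcript of a single strain could enter the list.

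In the largest differences, 6 assembled LncRNAs were present in essentially a single strain. LncRNA1562, LncRNA2433 and LncRNA695 were found in BALB/c, and LncRNA1432, LncRNA5734 and LncRNA12 in B10.D2. LncRNA1562 was at 3.92, 6.87, 11.7 and 10.8 CPM in BALB/c SNI and had no count in the 5 B10.D2 SNI libraries, which is at least 99.3-fold lower at a floor of 3 counts per library. LncRNA2433 was at 2.98, 3.99, 4.23 and 3.54 CPM in BALB/c SNI and had no count in B10.D2 SNI (at least 43.9-fold lower). LncRNA695 was at 5.76 to 6.48 CPM in BALB/c SNI with 1 count over the B10.D2 SNI libraries (ratio 1151.3, interval 206 to 45524.2). In the other direction LncRNA1432 was at 0.896 to 1.5 CPM, LncRNA5734 at 0.672 to 1.77 CPM and LncRNA12 at 0.921 to 1.26 CPM in B10.D2 SNI. None of them had a count in BALB/c SNI (at least 11.6-fold, 11.2-fold and 10.8-fold lower). All of these were called in sham in the same direction, with a few counts in sham libraries of the lower strain (at most 0.0585 CPM).

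The first 120 bases of the first exon, on the transcribed strand of GRCm38.p6, are given for these 6, since their names are the study's own. LncRNA1562 starts in an intergenic region at chr8:20956825-20956944 (plus strand), 8701 bases from Defa21, and has 4 exons. LncRNA2433 lies at chr12:8507655-8507774 (minus strand), 6898 bases from Rhob, and has 2 exons. LncRNA695 lies at chr4:12234999-12235118 (plus strand) in an intergenic region and has 2 exons. LncRNA1432 lies at chr7:102182890-102183009 (plus strand) within or across Nup98, outside its exons, and is a single exon of 388 bases. LncRNA5734 starts at chr9:76480259-76480378 (plus strand) and is antisense to exons of Fam83b. LncRNA12 starts at chr1:11921358-11921477 (plus strand) within A830018L16Rik and has 2 exons.
LncRNA1562: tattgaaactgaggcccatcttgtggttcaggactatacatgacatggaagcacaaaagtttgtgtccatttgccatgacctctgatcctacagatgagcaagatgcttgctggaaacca
LncRNA2433: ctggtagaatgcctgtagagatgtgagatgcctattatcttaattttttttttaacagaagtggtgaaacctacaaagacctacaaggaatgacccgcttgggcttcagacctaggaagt
LncRNA695: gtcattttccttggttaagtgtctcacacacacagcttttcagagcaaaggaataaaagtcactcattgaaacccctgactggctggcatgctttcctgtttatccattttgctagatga
LncRNA1432: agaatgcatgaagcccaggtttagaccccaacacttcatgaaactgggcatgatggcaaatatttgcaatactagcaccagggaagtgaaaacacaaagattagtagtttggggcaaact
LncRNA5734: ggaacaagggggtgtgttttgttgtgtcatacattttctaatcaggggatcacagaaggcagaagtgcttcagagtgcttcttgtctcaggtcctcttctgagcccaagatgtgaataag
LncRNA12: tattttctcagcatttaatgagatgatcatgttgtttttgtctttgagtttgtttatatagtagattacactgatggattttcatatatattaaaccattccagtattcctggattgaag
Among the genes beside these LncRNAs, Rhob (log2 0.09, adjusted P = 0.32), Nup98 (log2 0.09, adjusted P = 0.15) and A830018L16Rik (log2 0.08, adjusted P = 0.26) did not pass.

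The exons of the 6 LncRNAs differed widely in repeat content. The soft-masked (interspersed or low-complexity repeat) share of exon bases in the reference was 87.5% in LncRNA1562 and 92.1% in LncRNA12, and 36.1% in LncRNA1432, 22.7% in LncRNA5734, 17.9% in LncRNA2433 and 10.2% in LncRNA695. Among intergenic assembled LncRNAs, 35.1% of the 225 that were called at least 2-fold had at least 50% of their exon bases masked, against 13.9% of the 79 called under 2-fold and 17.3% of the 701 not called. The medians were closer, at 31.5%, 26.9% and 27.1%. These shares are a description over transcripts, and reads in repeats are harder to place.

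LncRNA1291, which the study followed up by qPCR, was the member of the 14 LncRNAs it named with the largest strain difference. Those 14 were chosen by the study on these samples, and 4 were higher and 1 lower in B10.D2 SNI (35.7%, against 20.9% over all features). LncRNA1291 was at 0.167, 0.102, 0.339, 0.107 and 0.112 CPM in B10.D2 SNI and at 4.31, 2.26, 2.83 and 5.33 CPM in BALB/c SNI (22.2-fold, log2 -4.39 ± 0.67, adjusted P = 4.2e-05). The sham difference was -2.02, with an overlap of the groups. B10.D2 sham libraries 60 and 77 held 2.47 and 1.84 CPM of LncRNA1291, and 58, 67 and 88 held 0.146 to 0.241 CPM, against 2.23 to 5.25 CPM in BALB/c sham. LncRNA1291 has 2 exons, 90.5% of whose bases are masked as repeats, and spans chr6:28923959-28929796 on the minus strand within or across Snd1, outside Snd1 exons. Snd1 itself had a log2 difference of -0.07 (adjusted P = 0.40). The primers of its qPCR amplicon match the reference at chr6:28929410-28929429 (forward, minus strand) and chr6:28929355-28929376 (reverse, plus strand), and are shown so that the assayed part of the transcript can be placed.
LncRNA1291 forward: tcgcagacctcactaccttc
LncRNA1291 reverse: ggaggggttatgtttcctggat
LncRNA561 (log2 0.66 ± 0.12, adjusted P = 3.8e-04), LncRNA6043 (log2 0.45 ± 0.12, adjusted P = 0.0074), LncRNA4834 (log2 0.41 ± 0.10, adjusted P = 0.0058) and LncRNA531 (log2 0.20, adjusted P = 0.017) were higher in B10.D2.

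Annotated LncRNAs included differences as large. Gm40518 was at 11.3, 13.2, 13.8, 13.2 and 13.7 CPM in B10.D2 SNI and at 0.0324, 0.0251, 0.0778 and 0.0284 CPM in BALB/c SNI (319-fold), and A730017L22Rik was 277-fold higher in B10.D2. Gm7292 was at 0.375 to 0.727 CPM in B10.D2 and 91.0 to 95.4 CPM in BALB/c (171-fold), and Gm44744 had a ratio of 426 (interval 118 to 3527.8). The nuclear scaffold transcript Neat1 was at 363 to 489 CPM in B10.D2 and 553 to 689 CPM in BALB/c (log2 -0.48 ± 0.13, adjusted P = 0.014).

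Assembled LncRNAs antisense to a protein-coding exon had no fixed relation to their sense gene. Of 542 pairs in which both were tested, 93 LncRNAs were called and 35 pairs had both members called, 18 with the same sign and 17 with opposite signs. In the Trim cluster LncRNA1435 (log2 3.72) moved with its sense gene Trim5 (log2 5.63), and LncRNA5456 (log2 3.76) was opposite to its sense gene Trim34b (log2 -4.58). LncRNA557 was at 0.0318 CPM on average in B10.D2 and 4.43 CPM in BALB/c (log2 -7.00 ± 0.35), while its sense gene Fcgr1, an Fc receptor of macrophages, was higher in B10.D2 (log2 0.68, adjusted P = 0.034). These pairs were chosen after their values were seen.

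Differences were spread over the genome and dense in some stretches of it. Apart from the mitochondrial chromosome, on which 0 of 15 features were called by edgeR (1 at an unadjusted P under 0.05, none by DESeq2), and the Y chromosome (3 of 13), the share called ran from 16% on X to 26.4% on chromosome 18. In 334 windows of 5 Mb with at least 30 tested features, the share ran from 0% to 56.8%, with a median of 20%, and 43 windows were under 10% while 16 were at 40% or more. The highest was at 20 to 25 Mb of chromosome 12 (21 of 37 features), followed by 135 to 140 Mb of chromosome 6 (20 of 36). At 165 to 170 Mb of chromosome 1 none of 45 features was called by edgeR (8 at an unadjusted P under 0.05, 2 called by DESeq2). The windows that cover the H2 region, shared by haplotype, had 17.7% called at 30 to 35 Mb and 17.6% at 35 to 40 Mb of chromosome 17, somewhat under the median. Called differences of at least 2-fold made up 0% of the first (147 features) and 4.9% of the second (102 features), against 6.09% over all features. The window shares after SNI and in sham had a Pearson correlation of 0.87 over the 334 windows, which share the same 2 genomes and annotation.

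**Figure D5:**
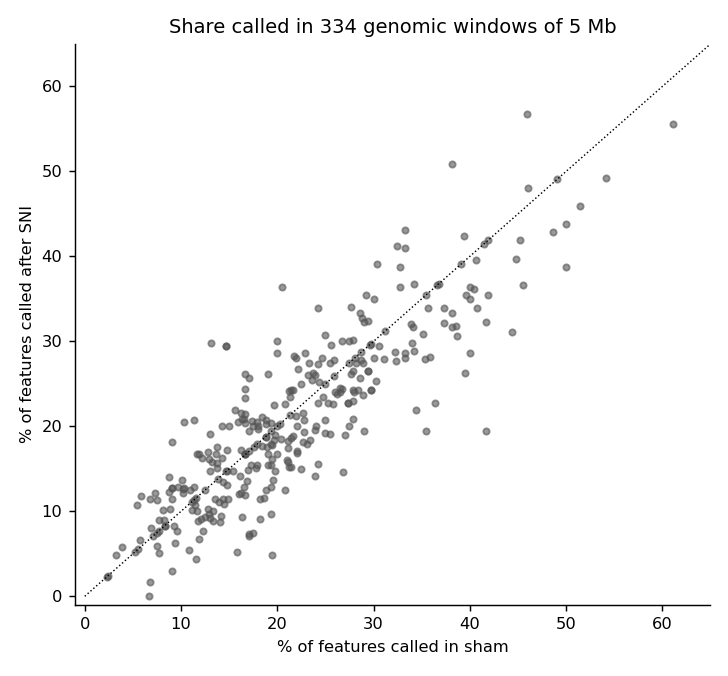
Each point is a 5 Mb window of the genome, with the share of its features called in sham on the x axis and after SNI on the y axis, both in percent. Windows range from 0% to 56.8% after SNI and lie along the dotted line of equal shares.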

How the data were processed

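Whole-ganglion RNA was sequenced as strand-specific paired-end libraries. Per the study's methods, the authors aligned reads with STAR to mm10 and counted read pairs with HTSeq over Ensembl genes and LncRNAs they assembled. The deposited tables hold raw counts per feature. Groups came from the labels. The 2 labelled samples without a column, B10.D2 sham 59 and BALB/c SNI 66, were not analysed here. The deposited result tables hold the authors' own comparisons and were not used.

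Counts of 20 mouse libraries were fitted with edgeR 4.0.16 (R 4.3.3; TMM, filterByExpr, quasi-likelihood F test, two-sided) as 4 groups plus sex, and P-values were adjusted over all 24685 features tested. Models were tested on simulated data. DESeq2 1.42.0 was an alternative. Replicates are separate animals. With no count in a group, folds were computed against 3 counts per library. Ratios of low counts carry exact 95% intervals that cover counting error only.

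Named features are called ones with no overlap and at least 1 CPM: the 10 largest rises and falls of protein-coding genes, 4 and 4 of assembled and 2 and 2 of annotated LncRNAs, the 5 and 5 most abundant that differ at least 2-fold, those called in the interaction, and up to 4 called members of each gene list by size of difference, for which the call alone was required. Other members named were chosen after their values were seen. Some members that the rule names are not reported here. The comparison, lists and rules were chosen with earlier results of these data known.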

Additional observations from a re-analysis of the deposited data

Results flagged for a closer look

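The strain difference of 6 features differed between SNI and sham in a direct test. Gal (-2.37), Duoxa1 (-2.72), Wfdc3 (-1.68) and Cdc23 (-0.33) are described above as log2 interactions. Ly6a, a surface protein of endothelial and haematopoietic cells, had an interaction of -1.74 (adjusted P = 1.2e-04, edgeR). It was at 16.2 to 24 CPM in B10.D2 SNI and 23.9 to 27.7 CPM in BALB/c SNI, and at 10.7 to 17.9 CPM in B10.D2 sham and 3.71 to 6.81 CPM in BALB/c sham. The annotated LncRNA AC160966.1 had an interaction of -3.83 (adjusted P = 0.022, edgeR), with 0.302 to 0.497 CPM in B10.D2 sham, 0 to 0.0895 CPM in BALB/c sham and an overlap of the strains after SNI. Its BALB/c sham values were at or below 3 counts per library. The interaction of AC160966.1 passed in 12 of the 20 fits that left out a library, and that of Ly6a in all 20. Without BALB/c SNI library 49 (edgeR adjusted P = 0.071) or 65 (0.13), that of AC160966.1 did not pass.

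Single libraries stood outside the rest of their group in 31 of 386 groups checked, where chance gives about 5%. B10.D2 library 76 was low for Crh (0.306 CPM), Tnfrsf12a (6.23 CPM), Ifit1 (24.5 CPM) and the summed injury-induced genes (1431.8 CPM), and high for Slc17a8 (18.4 CPM) and Galr1 (11.8 CPM). B10.D2 library 69 was high for B2m (251 CPM), C1rb (0.0279 CPM), Gm44744 (0.0558 CPM) and the summed red blood cell genes (1035.0 CPM), and low for Snhg11 (630 CPM) and Gm40518 (11.3 CPM). BALB/c library 49 was high for Pvalb (97.7 CPM), Neat1 (689 CPM), AK157302 (8.4 CPM) and the summed muscle genes (608 CPM), and low for Gsta4 (23.5 CPM). The other values were Serpina1b in B10.D2 library 90 (0.028 CPM), Gstm2 in B10.D2 library 89 (11.3 CPM), and in B10.D2 library 78 LncRNA695 (0.0242 CPM), LncRNA3324 (0.0485 CPM), Mpo (1.77 CPM) and LncRNA1291 (0.339 CPM). In BALB/c library 64 they were LncRNA302 (0.0251 CPM), A730017L22Rik (0.0752 CPM), Galr1 (6.59 CPM) and Kcnj16 (3.28 CPM), and in BALB/c library 65 Gm40518 (0.0778 CPM), H2-Q4 (18.9 CPM), Iigp1 (12.4 CPM) and the summed cell death genes (404 CPM). Several of these are single counts.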

How the results depend on the processing

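No named feature changed sign under any alternative tried. Of the 5147 called features, 1 differed in sign between males and females, which is no independent check because both sexes gave the calls. Counts of features called between strains after SNI were 5147 in the reported fit, 2908 in males alone, 2542 in females alone and 1503 with a 2-fold minimum, and 4217 to 5164 with 1 library left out. They were 5398 with DESeq2 and 4199 with at least 10 counts in every library. In sham they were 4515 to 5161 with 1 library left out. The interaction gave 6 features, 3 with at least 10 counts in every library, 11 with DESeq2 and 3 to 6 with 1 library left out. It gave 3 when BALB/c SNI library 49 or 65, BALB/c sham library 71 or B10.D2 sham library 67 was left out. The cause was not tested. Fewer libraries entered the fits with 1 left out, and a stricter count filter was used in the fit with at least 10 counts. Of the 155 named features, 65 lost their call under at least 1 alternative, 51 of them in females alone and 34 in males alone. Of the lists, neutrophil genes fell from 12 to 7 called and macrophage genes from 8 to 3 without BALB/c library 49, and fibroblast genes went from 5 higher and 4 lower to 3 and 6, an alternative added after seeing the data, as was the test of strain by sex. No paired analysis was possible because the labels give each library its own number. Depth leaves up to 3 counts open where no count was found, 0.0727 to 0.0973 CPM per SNI library.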

Other observations

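Other gene lists were as follows. Of 19 genes linked to pain by genetics, 7 were higher in B10.D2 SNI and 2 lower (47.4%, against 20.9% over all features), with 4 higher without BALB/c library 49, and 7 of the 9 were called in sham with the same sign. Gch1, the first enzyme of tetrahydrobiopterin synthesis, was at 5.54 to 6.28 CPM in B10.D2 and 7.46 to 10.6 CPM in BALB/c (log2 -0.59 ± 0.09, edgeR adjusted P = 6.0e-05), and the vasopressin receptor gene Avpr1a was higher in B10.D2 (log2 0.84, adjusted P = 0.027) with an overlap of the groups, passing in 5 of the 9 fits that left out a library. Of 21 glutathione transferase genes, 1 was higher and 2 were lower (14.3%, below the share over all features), with Gstm2 at 11.3 to 13.4 CPM against 23.7 to 25.9 CPM (log2 -0.96 ± 0.08, adjusted P = 2.0e-08). Of 13 genes of the Ly6 family, 4 were higher and 2 lower (46.2%, against 20.9% over all features). Lypd1 was at 12.2 to 20.5 CPM against 4.11 to 5.61 CPM (log2 1.70 ± 0.18, adjusted P = 4.2e-07). Of 10 muscle and 9 adipocyte genes none was called after SNI by edgeR (0 and 1 at an unadjusted P under 0.05, 0 and 1 by DESeq2), whereas 7 and 4 were lower in B10.D2 sham. Aspa, which deacetylates N-acetylaspartate, was 1.67-fold higher in B10.D2 (log2 0.74 ± 0.09, adjusted P = 1.7e-06), and of the other 3 oligodendrocyte genes tested none passed.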
